A study of Mus musculus with 2 samples.

Results

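The genes described here are 9 crystallin genes (Cryaa, Cryab, Cryba1, Cryba2, Cryba4, Crybb1, Crybb2, Crybb3 and Crygs) of the 31053 features counted in each library. They were taken by symbol from the feature list, and the rule used no measured value. Their raw UMIs (unique molecular identifiers, 1 per captured transcript) were followed in lens cells, in the classes of retinal and other ocular cells, and in red blood cells, which should lack them. Eye cups of mice at postnatal day 0 were dissociated into single cells. The control library pooled 3 eye cups of genotype Myrf fl/fl, and the mutant library pooled 3 of genotype Rx>cre Myrf fl/fl. Both groups thus carry the floxed alleles of Myrf, the gene of a membrane-bound transcription factor, and only the mutant carries Rx>cre, which is active in the optic field that gives rise to neural retina and pigment epithelium (RPE). Lens, cornea and optic nerve were dissected away before dissociation, so lens material in a library is what that dissection left. With 1 library per genotype there was no test and no replicate, and every interval given is exact and is a 95% interval for counting error only.

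Crystallins are the bulk proteins of the lens. The alpha crystallins Cryaa and Cryab belong to the small heat shock proteins, chaperones that hold unfolding proteins in solution, while the beta crystallins (the Cryba and Crybb genes) and the gamma crystallins (such as Crygs) share one structural fold and pack densely in fiber cells. Cryab is also known from muscle, glia and RPE, and Crybb1 transcripts have been described in young microglia. Because fiber cells hold so much crystallin RNA and break easily, crystallin transcripts in other cells of an eye preparation can be the cells' own or can be free RNA captured in the same droplet.

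On GRCm38, 4 of the 9 genes lie on chromosome 5. Crybb1 (112255815 to 112269585, plus strand) and Cryba4 (112246493 to 112252518, minus strand) stand head to head with their starts 3297 bases apart, and Crybb2 (113058258 to 113070117) and Crybb3 (113075839 to 113081584) follow each other on the minus strand. Cryaa lies on chromosome 17 (31677807 to 31681733, plus strand), Cryba1 on chromosome 11 (77718615 to 77725283, minus strand), Cryba2 on chromosome 1 (74889934 to 74893143, minus strand) and Crygs on chromosome 16 (22805203 to 22811577, minus strand). Cryab (chromosome 9, 50751325 to 50756636, plus strand) overlaps Hspb2 on the opposite strand, with the starts 1029 bases apart, so reads from the overlap are uncertain if counting ignored strand. Antisense genes also overlap Cryaa, Cryba1 and Crybb2. RefSeq promoter windows were at hand for 8 of the 9 genes, each covering the 250 bases before the RefSeq start, which can differ from the gene bounds above, taken from GENCODE. The letters TGCTGA (the core of the element that MAF factors, regulators of crystallin genes, recognise), searched on both strands, were in 7 of the 8 windows and in 16.1% of all 32851 windows. The letters GAGGAA (the core that the blood cell factor PU.1 of the ETS family recognises), also searched on both strands, were in 3 of the 8 windows, those of Cryaa, Cryba1 and Crybb2, and in 23.3% of all windows. The windows of the head-to-head pair and of the lens genes Cryaa and Crybb3 are shown because the first pair was found in white blood-like cells in both libraries and the others were not; capitals mark matches to either motif.
Crybb1, GRCm38.p6, chr5:112255570-112255819, plus strand: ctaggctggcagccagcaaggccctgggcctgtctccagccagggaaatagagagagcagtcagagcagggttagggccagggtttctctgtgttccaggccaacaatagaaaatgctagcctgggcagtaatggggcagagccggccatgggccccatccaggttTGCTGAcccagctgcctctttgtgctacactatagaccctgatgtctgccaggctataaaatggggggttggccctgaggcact
Cryba4, GRCm38.p6, chr5:112252519-112252768, minus strand: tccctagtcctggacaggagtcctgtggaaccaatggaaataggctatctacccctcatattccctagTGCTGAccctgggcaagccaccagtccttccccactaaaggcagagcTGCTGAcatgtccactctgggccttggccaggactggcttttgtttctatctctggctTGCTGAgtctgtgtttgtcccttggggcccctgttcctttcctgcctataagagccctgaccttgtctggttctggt
Cryaa, GRCm38.p6, chr17:31677681-31677930, plus strand: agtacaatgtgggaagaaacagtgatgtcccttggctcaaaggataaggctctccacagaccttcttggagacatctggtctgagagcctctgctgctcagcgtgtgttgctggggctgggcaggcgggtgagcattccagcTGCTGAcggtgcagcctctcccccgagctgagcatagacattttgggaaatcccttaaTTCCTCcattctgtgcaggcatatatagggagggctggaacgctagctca
Crybb3, GRCm38.p6, chr5:113081585-113081834, minus strand: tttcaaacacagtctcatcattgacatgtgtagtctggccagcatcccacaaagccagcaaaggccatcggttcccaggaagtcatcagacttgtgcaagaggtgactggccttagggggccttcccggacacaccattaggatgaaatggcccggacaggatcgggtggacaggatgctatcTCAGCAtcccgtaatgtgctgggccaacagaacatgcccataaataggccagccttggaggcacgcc
Cryba4 held 3 MAF matches, and Crybb1, Cryaa and Crybb3 held 1 each. A match is a description of the letters and not a site of binding.

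The control matrix held 14305 barcodes and 79017429 UMIs, and the mutant matrix 12222 barcodes and 76272867 UMIs. After the limits on genes and mitochondrial share and the removal of called doublets, 12485 control and 10813 mutant cells remained, with medians of 4272 and 4821 UMIs. The libraries shared 59 barcodes, of which 54 control and 52 mutant barcodes were kept cells, and none was a lens cell outside the RPE-like class. Clustering without the crystallin genes gave 36 clusters, of which 5 stayed unnamed and the rest took 15 class names from marker genes. Myrf stood at 225 UMIs per 1000000 (CPM) in 523 control RPE-like cells and at 26.5 CPM in 210 mutant RPE-like cells. The class differed in depth between libraries, with medians of 2436 and 10166 UMIs. Whether the counted 3′ tags lie in the deleted part is not given in the sources used here. The groups also differed in lens material, which was present in the control library and nearly absent from the mutant library. Since the lens was dissected away from both, genotype and dissection cannot be told apart as the source of that difference.

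Lens cells were set by 10 lens genes that are not crystallins, among them Lim2, Mip and the beaded filament genes Bfsp1 and Bfsp2, of which a cell had to hold at least 3. This gate took 107 of 12485 control cells (0.857%, exact interval 0.703% to 1.03%) and 8 of 10813 mutant cells (0.0740%, 0.0319% to 0.146%). However, 31 of the 107 control cells and all 8 mutant cells were RPE-like cells with few crystallin UMIs. RPE-like cells held some of the gate genes in both libraries, with Bfsp2 at 83.7 and 37.7 CPM and Mip at 39.9 and 26.9 CPM in control and mutant. Without the RPE-like class the gate held 76 control cells (0.609%, 0.480% to 0.761%) and none of the 10813 mutant cells, where a count of 0 allows 0.0277% by 3 counts of the total (exact upper bound 0.0341%). These 76 cells are called lens cells below, a choice made after the values were seen.

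The lens cells were shallow, with a median of 1289 UMIs (509 to 21698), and the 9 genes took a median of 17.3% of their UMIs. With the gamma crystallins Cryga to Crygf and Crygn added, 16 crystallin genes took a median of 41.2% of the UMIs of a lens cell. The gate did not give a uniform population. Of the 76 cells, 50 lay in 1 unnamed shallow cluster, whose 10 leading genes are crystallins and where the 9 genes took a median of 20.8% of UMIs, while 20 lay in named classes of other cells, where the share was 0.826%. Of the gate genes, which chose these cells, Lim2, a fiber membrane protein, had a UMI in all 76 and Mip, the fiber water channel, in 65. Foxe3 and Lgsn had no UMI in any class of either library and so set nothing apart.

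Levels in lens cells were taken from the pooled UMIs of the 76 cells, in which deep cells weigh more. Among the structural members, Cryba1 was highest in the lens cells at 18756 CPM (18237 to 19287), followed by Crybb3 at 17291 CPM (16792 to 17800) and Crybb1 at 13065 CPM (12632 to 13509). Cryba4 stood at 5851 CPM (5562 to 6150) and Cryba2 at 4727 CPM (4468 to 4997). Crygs, a gamma crystallin, was lower at 1944 CPM (1779 to 2120), and Crybb2 was the lowest of the 9 at 387 CPM (316 to 470). Of the chaperones, Cryaa stood at 16080 CPM (15599 to 16571) and Cryab at 2707 CPM (2512 to 2913). No pair of neighbours in this order had overlapping counting intervals, but these do not hold the spread between cells. For Cryba1, 1 cell held 1008 of the 4940 UMIs. The median over single cells was higher, at 36258 CPM for Cryba1 and 30727 CPM for Cryaa, but lower for Crybb2 at 192 CPM. These values count 3′ tags, so they do not scale with transcript length, but capture can differ between genes. Relative to all other control cells, also pooled, 7 of the 9 genes were 204 to 265 times higher in lens cells and Crybb2 was 142 times higher, whereas Cryab was only 22.7 times higher (plot of levels in lens cells and in all other cells).

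**Figure D1:**
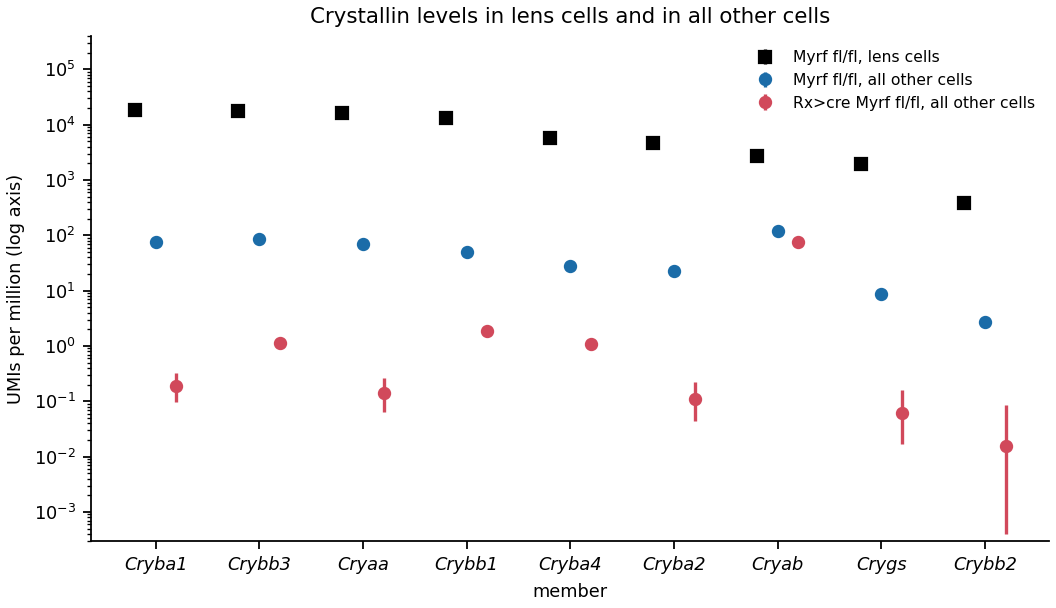
CPM of each crystallin gene on a log axis in the 76 control lens cells (squares), in the other control cells (blue circles) and in mutant cells (red circles), with exact 95% counting intervals. Cryab is the gene with the smallest gap between lens cells and other cells, and its mutant level of 76.2 CPM, with the gated RPE-like cells included, lies far above those of the other 8 genes.

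Outside the lens gate, the summed level of the 9 genes was 452 CPM (447 to 457) in 12378 control cells and 78.3 CPM (76.1 to 80.5) in 10805 mutant cells, 5.78-fold lower in the mutant (5.61 to 5.95). The fall was not shared evenly. Of the 9 genes, 8 were at least 2-fold lower in the mutant and none was at least 2-fold higher, while over all 15715 genes with enough UMIs 0.585% were at least 2-fold lower and 0.115% at least 2-fold higher. With only the lens cells left out, so that the gated RPE-like cells stayed in, the counts were the same 8 and 0 of 9, beside 0.648% and 0.108% of all genes. Cryaa went from 4778 UMIs to 9, or from 70.3 to 0.140 CPM (502-fold lower, 264 to 1098). Cryba1 went from 77.2 to 0.187 CPM (413-fold lower, 236 to 800), and Cryba2 from 22.4 to 0.109 CPM (205-fold lower, 99.5 to 512). Crybb2, with 187 control UMIs, had 1 mutant UMI, and Crygs went from 585 UMIs to 3. These genes were therefore close to the limit of detection in the mutant library.

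By the plain ratio the falls were smaller for 4 members. The intervals of Crybb2 (177-fold, 31.3 to 7017) and Crygs (184-fold, 62.8 to 896) were wide. That of Crybb2 overlapped those of Crybb3, Crybb1 and Cryba4, and that of Crygs overlapped that of Crybb3. Crybb3 went from 85.2 to 1.12 CPM (76.0-fold lower, 60.2 to 97.3). The neighbours Crybb1 and Cryba4 went from 49.7 to 1.84 CPM (27.0-fold, 22.5 to 32.8) and from 27.6 to 1.07 CPM (25.7-fold, 20.2 to 33.2). Cryab moved least, from 109 CPM (106 to 111) to 73.8 CPM (71.7 to 75.9), which is 1.47-fold lower (1.42 to 1.53). That ratio holds the mix of classes of each library as well as the levels within them. RPE-like cells, which held 3569 of the 8172 control UMIs of Cryab outside lens cells, numbered 523 of 12409 control and 210 of 10813 mutant cells. With the class mix of the control in both libraries, an alternative chosen after seeing the data, Cryab stood at 109 and 92.1 CPM, 1.18-fold lower in the mutant. Background was not subtracted from these levels. Red blood-like cells, which should lack Cryab, held it at 17.1 CPM in the control and at 0 UMIs in the mutant. The part of this background in both Cryab ratios was not tested. Put as shares, Cryab made up 25.9% of the UMIs of the 9 genes outside lens cells in the control and 94.4% in the mutant. At least 1 UMI of the other 8 genes was held by 66.9% of control and 1.41% of mutant cells outside the lens cells (median depths of 4280 and 4821 UMIs). Control red blood-like cells, with a median of 3554.5 UMIs, held one in 69.7%, so the control share was not above that of a class that should lack these genes.

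**Figure D2:**
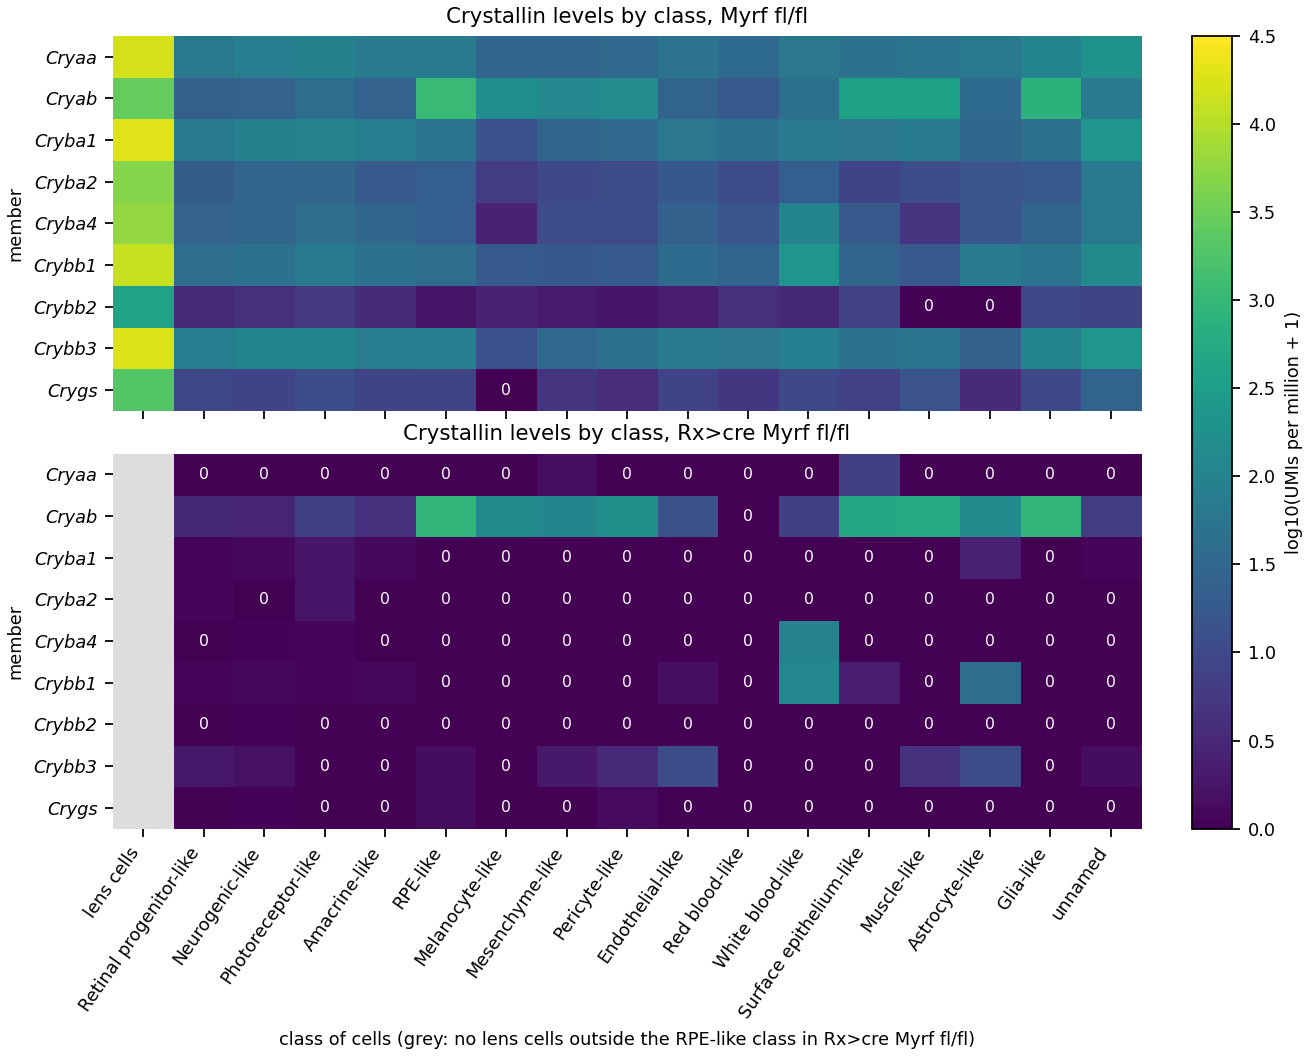
Heat maps of log10(CPM + 1) for the 9 crystallin genes (rows) in lens cells and in each class of cells (columns), control above and mutant below, with 0 written where no UMI was counted. In the control every class carries most of the genes, whereas in the mutant the highest levels are those of Cryab in several classes, of Crybb1 and Cryba4 in white blood-like cells and of Crybb1 in astrocyte-like cells (40.2 CPM), with Crybb3 in endothelial-like cells at 10.1 CPM.

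In the control library the lens-type signal was spread over every class. Cryaa, Cryba1 and Crybb3 summed to 213 CPM (207 to 220) in retinal progenitor-like cells, 307 CPM (290 to 324) in photoreceptor-like cells, 204 CPM (189 to 220) in RPE-like cells and 89.8 CPM (84.6 to 95.2) in mesenchyme-like cells. Red blood-like cells, which make globin and should make no crystallin, held 143 CPM (120 to 169). The number of these UMIs in a cell varied less than the CPM, from a mean of 0.944 in red blood-like cells to 1.42 in surface epithelium-like cells over the 12 classes with at least 50 control cells. The unnamed clusters were higher, with 1.99 UMIs per cell and 656 CPM (636 to 676) in 2021 control cells of mixed depth. Crystallins led 2 of these clusters, although they were kept out of the clustering. They were all of the 10 leading genes in a cluster with 709 control cells outside the lens cells (median 860 UMIs), at 2691 CPM (2579 to 2807) of the 3 genes, and 7 of the 10 in a cluster with 593 (median 1791 UMIs), at 735 CPM (690 to 783). So some of the signal counted outside the lens cells lies in clusters that crystallins lead. The 313 and 27 mutant cells of the same clusters held 1 and 0 UMIs of the 8 genes other than Cryab. The other unnamed clusters stood at 223 CPM (209 to 238) and 1.25 UMIs per control cell. In the mutant, the 88 red blood-like cells held 0 UMIs of all 9 genes, and retinal progenitor-like cells held 24 UMIs of the 3 genes in 4324 cells (1.07 CPM).

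The CPM of the lens-type genes in control cells moved with depth. In retinal progenitor-like cells the 3 genes summed to 1.21 UMIs per cell (0.998 to 1.45) in 97 cells of up to 2000 UMIs and to 1.13 (0.819 to 1.52) in 38 cells over 12000 UMIs, and the bins between lay from 0.955 to 1.23. The same UMIs came to 782 CPM in the shallowest bin and 82.6 CPM in the deepest. Crym, a thyroid hormone binding protein named for a crystallin role in other species and expressed by retinal progenitors, went the other way, from 0.835 to 6.08 UMIs per cell, and its CPM stayed between 444 and 541.

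**Figure D3:**
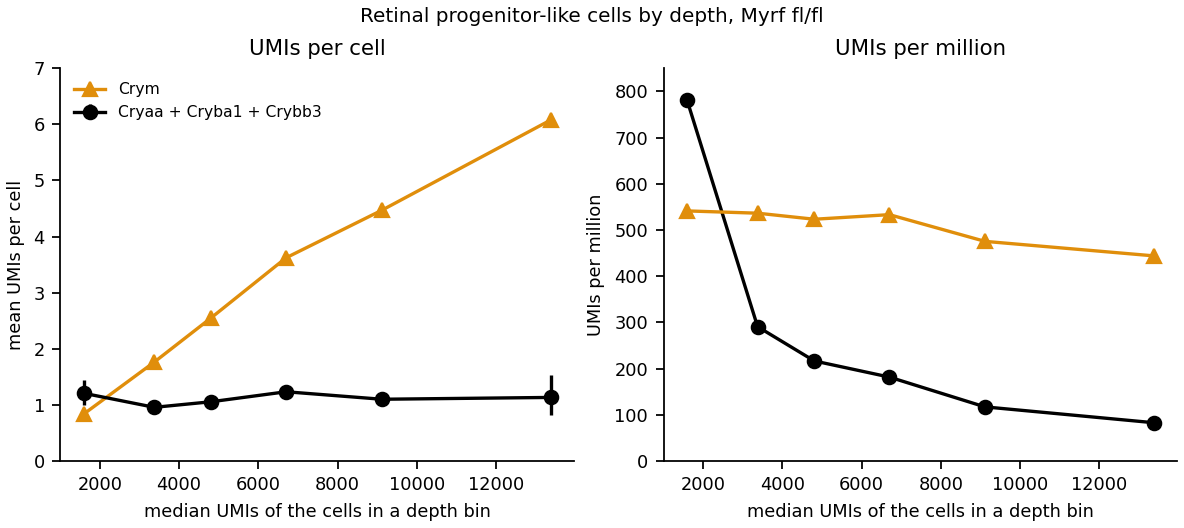
Control retinal progenitor-like cells in 6 bins of depth, with mean UMIs per cell (left, exact 95% counting interval for the crystallin sum) and CPM (right) against the median UMIs of the bin. The sum of Cryaa, Cryba1 and Crybb3 stays near 1 UMI per cell at every depth, while Crym rises with depth to 6.08 UMIs per cell.

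The mix of the genes was followed over the 12 control classes, in which Cryaa made up 25.4% to 32.6% of the sum of Cryaa, Cryba1 and Crybb3, Cryba1 27.3% to 39.4% and Crybb3 30.1% to 42.5%. In the lens cells Cryaa made up 30.8% and Crybb3 33.2%. Relative to the same sum, Cryba2 ran from 4.66% to 10.5% over the 12 classes, Crygs from 2.42% to 7.58%, Crybb1 from 9.85% to 101% and Cryba4 from 2.27% in muscle-like to 47.7% in white blood-like cells. The first 3 shares add to 100% by their definition, and the lowest of Cryba4 rests on 3 UMIs, so the widths of these ranges were not compared. Cryba4 stood at 11.2% in lens cells, 10.4% in red blood-like cells and 11.7% in retinal progenitor-like cells. Crygs stood at 3.73%, 2.99% and 3.96% in those 3 populations. For the gamma crystallins the mix differed between lens cells and the rest. Cryga to Crygf had 2.34 UMIs for each UMI of the 3 genes in lens cells but 1.25 in all other control cells, 1.29 in red blood-like cells and 1.27 in retinal progenitor-like cells. Cryga to Crygf are related genes, so their split among themselves can be uncertain.

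A few control cells held much of the signal. Outside the lens cells, 243 of 12409 control cells (1.96%) held at least 10 UMIs of the 8 genes other than Cryab, together 32.1% of those UMIs, and the highest held 209. In the mutant 5 of 10813 cells reached 10 such UMIs, and all 5 were white blood-like. Called doublets that had been removed held 4662 UMIs of the 8 genes in the control (473 CPM) and 76 in the mutant (6.61 CPM). Of the 243 cells, 56 were in the unnamed clusters, where they held 53.0% of the UMIs of the 8 genes in those clusters, whereas no red blood-like cell held more than 12. The clusters led by crystallins held 27 and 18 of the 243, and without both clusters the 8 genes went from 341 to 282 CPM outside the lens cells of the control. In the named control classes, levels of Cryaa, Cryba1, Cryba2, Crybb2, Crybb3 and Crygs cannot be told apart from free RNA, which red blood-like cells carried too.

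Cryab was the member with levels far above background in retinal pigment epithelium, glia, muscle and surface epithelium. In red blood-like cells it stood at 17.1 CPM (9.77 to 27.7) in the control and at 0 UMIs in the mutant, which allows 3.31 CPM by 3 counts (exact upper bound 4.07 CPM). Retinal progenitor-like cells held 21.6 CPM (19.6 to 23.8) and neurogenic-like cells 25.3 CPM (21.8 to 29.2) in the control, and both intervals overlapped that of red blood-like cells. Photoreceptor-like cells held 40.9 CPM (34.9 to 47.6), but per cell they held 0.140 UMIs of Cryab against 0.113 in red blood-like cells. Relative to the sum of Cryaa, Cryba1 and Crybb3, Cryab stood at 13.3% and 11.9% in those 2 classes. The same 3 classes of the mutant held 2.27, 1.94 and 6.24 CPM. In retinal progenitor-like cells Cryab was 9.54-fold lower in the mutant (7.12 to 13.0), with 8 of 8 genes with enough UMIs at least 2-fold lower beside 0.759% lower and 0.121% higher of all genes tested in that class.

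In RPE-like cells, the pigmented layer behind the retina and the site of Myrf expression, Cryab stood at 1078 CPM (1043 to 1114) in the control and 928 CPM (890 to 967) in the mutant. This is a 1.16-fold lower level in the mutant (1.10 to 1.22), while 6 of the 7 genes with enough UMIs in this class were at least 2-fold lower, beside 4.23% lower and 1.69% higher of all genes. The difference was not the same at every depth. Among RPE-like cells over 8000 UMIs the levels were 1129 CPM (1088 to 1172) and 927 CPM (887 to 969), among cells of 2000 to 8000 UMIs 976 CPM (894 to 1063) and 930 CPM (808 to 1065), and among cells of up to 2000 UMIs 777 CPM (671 to 895) and 953 CPM (687 to 1288). Only the deepest cells had intervals that did not overlap, and in the shallowest the mutant value was the higher. Each cell was then thinned to 1000 UMIs, which left out 107 control and 27 mutant RPE-like cells. Of the rest, 59.1% of 416 control and 57.4% of 183 mutant cells held a Cryab UMI (54.2% to 63.9% and 49.9% to 64.6%), against 75.3% and 83.8% without thinning and 76.9% and 77.6% when thinned to 2000 UMIs. In thinned red blood-like cells Cryab was in 5.26% of 114 (control) and none of 84 (mutant).

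Glia-like cells, led by Foxd3, Gfra3 and Scn7a, held Cryab at 793 CPM (638 to 975) in 21 control cells and 971 CPM (812 to 1153) in 20 mutant cells. Muscle-like cells held 357 CPM (315 to 401) and 584 CPM (524 to 649), so that Cryab was higher in the mutant library. Within that class, the cluster with the myoblast gene Myog had 312 CPM (273 to 355) and 529 CPM (470 to 593), and the cluster with the fiber gene Acta1 had 1609 CPM (1160 to 2176) and 1397 CPM (1043 to 1831), which overlapped. Surface epithelium-like cells held 364 CPM (332 to 399) and 518 CPM (470 to 569). In their Krt14 cluster the levels were 401 CPM and 623 CPM, and in their Krt6a cluster 308 CPM and 435 CPM, where without the top cell of each library they were 258 CPM and 337 CPM.

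As whole classes, cells of pigment, vessel wall and connective tissue were lower. Melanocyte-like cells held 160 and 133 CPM of Cryab, pericyte-like cells 148 and 180 CPM, and mesenchyme-like cells 126 and 115 CPM in control and mutant. Within the pericyte-like class, the Cryab level was higher in the cluster led by Higd1b, Rgs5 and Kcnj8, genes of capillary pericytes, at 413 CPM (370 to 461) in 86 control cells and 377 CPM (332 to 427) in 67 mutant cells. In the mutant, 1 cell held 75 of the 247 UMIs of that cluster, and without it the level was 269 CPM. The other cluster, led by Col10a1, Alkal2 and Alpl, held 92.0 CPM (82.5 to 102) in 328 control cells and 117 CPM (102 to 133) in 185 mutant cells, with intervals that met at the edge. All 7 pericyte markers counted in that cluster, but none was among its 10 leading genes, and it makes up most cells of the class. Without the top cell of each library the class stood at 142 and 153 CPM. Within the mesenchyme-like class it ran from 49.4 and 34.5 CPM in the Clec3b cluster to 290 and 233 CPM in the Lypd1 cluster. Astrocyte-like cells, led by Cartpt, Pax2 and Fbxo2, held 15 UMIs in 31 control cells (20.2 to 59.4 CPM) and 135 CPM (108 to 167) in 33 mutant cells, and without the top cell of each library 30.3 and 70.7 CPM. Endothelial-like cells stood at 25.9 and 12.2 CPM.

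**Figure D4:**
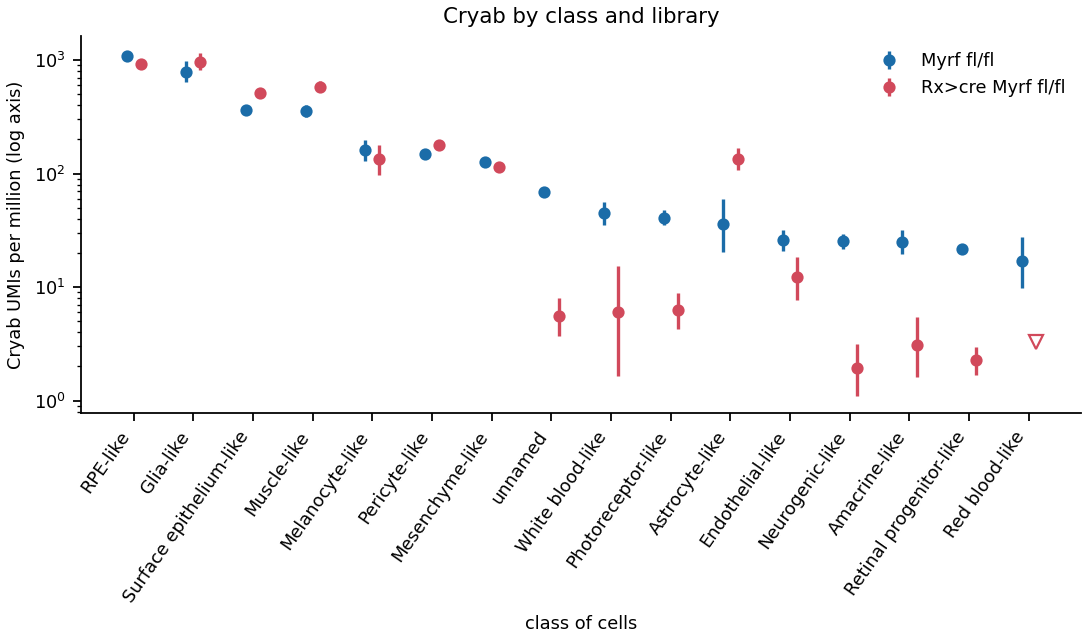
Cryab CPM (log axis) in each class, control in blue and mutant in red, with exact 95% counting intervals; the open triangle is the level that 3 counts would give in mutant red blood-like cells, which held none. RPE-like, glia-like, surface epithelium-like and muscle-like cells lie above 350 CPM in both libraries. The neural classes lie far lower in the mutant than in the control, where they stand at 21.6 to 40.9 CPM against 17.1 CPM in red blood-like cells.

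Crybb1 and Cryba4 stood above background together in white blood-like cells, a cluster led by C1qb, Pf4 and C1qc of the macrophage lineage. Crybb1 stood at 221 CPM (200 to 245) in 272 control cells and 127 CPM (101 to 157) in 68 mutant cells. Cryba4 stood at 105 CPM (89.9 to 121) and 101 CPM (78.4 to 128). Cryaa, Cryba1 and Crybb3 stood at 59.9, 73.2 and 86.0 CPM in the control cells of this class and had 0 UMIs in the mutant cells. Of the 6 members with enough UMIs in this class, 4 were at least 2-fold lower in the mutant, beside 2.75% lower and 0.841% higher of all genes. Crybb1 was 1.75-fold lower (1.38 to 2.24), and Cryba4 1.03-fold lower with an interval of 0.778 to 1.39 that includes no change. Background was not subtracted from these 2 folds. Cryaa, Cryba1 and Crybb3 together held 377 UMIs in the control cells of this class and 0 in the mutant cells. The part of that difference in the folds was not tested.

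The excess over the lens mix was seen within the control library as well. Crybb1 came to 101% of the sum of Cryaa, Cryba1 and Crybb3 in white blood-like cells, against 25.1% in lens cells and 19.4% in red blood-like cells. Cryba4 came to 47.7%, against 11.2% and 10.4%. A UMI of both genes was held by 58 of 272 control cells and 16 of 68 mutant cells, while 113 and 28 cells held Crybb1 and 91 and 25 held Cryba4. A Crybb1 UMI was thus in 41.5% and 41.2% of cells, at median depths of 2699 and 8775.5 UMIs. After thinning to 1000 UMIs, which left out 32 and 5 cells, Crybb1 was in 15.4% of 240 cells (11.1% to 20.6%) in the control and 12.7% of 63 in the mutant (5.65% to 23.5%), and in 5.26% of 114 control and 0 of 84 mutant red blood-like cells. Thinned to 2000 UMIs, the shares were 24.2% and 11.9%, so how the libraries compared depended on the thinning depth. Without the top cell of each library, Crybb1 stood at 205 and 117 CPM. With an upper limit of 2000 UMIs per barcode, Crybb1 in control cells was only 1.53 times the level in red blood-like cells, in place of 7.98 times.

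The class was split by 5 genes of resident microglia, P2ry12, Gpr34, Sall1, Tmem119 and Siglech, which were chosen after the values were seen. The 89 control cells with a UMI of these genes held Crybb1 at 256 CPM (227 to 287) and Cryaa at 17.0 CPM, and the 183 cells without held 157 CPM (127 to 192) and 139 CPM. In the mutant the 42 cells with a UMI held Crybb1 at 148 CPM (117 to 186), and the 26 cells without held 57.1 CPM (26.1 to 108). Cryba4 stood at 110 and 94.4 CPM in the control and at 107 and 82.5 CPM in the mutant. Depth differed between these groups, with medians of 12432 and 1856 UMIs in the control, and its part in the split was not tested. Maf, a member of the MAF family, stood at 821 and 1002 CPM in white blood-like cells of control and mutant and at 44.9 and 48.3 CPM in retinal progenitor-like cells.

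**Figure D5:**
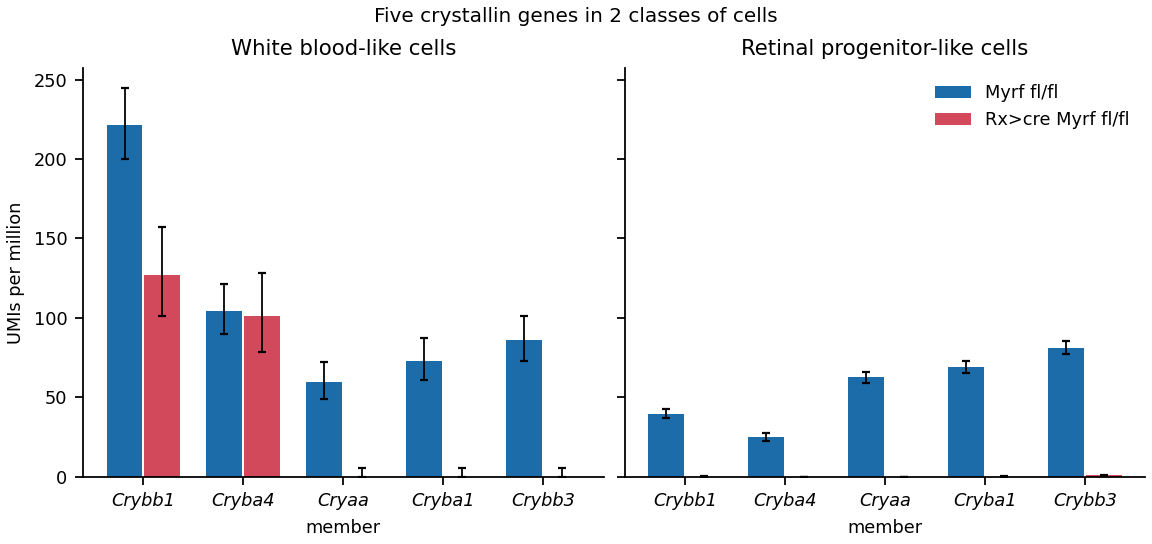
CPM of 5 crystallin genes in white blood-like cells (left) and retinal progenitor-like cells (right), control in blue and mutant in red, with exact 95% counting intervals. In the mutant only Crybb1 and Cryba4 remain in white blood-like cells, and no mutant bar is above 1 CPM in retinal progenitor-like cells.

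Crybb1 was also present in astrocyte-like cells. It had 31 UMIs in 31 control cells (74.5 CPM, 50.6 to 106) and 25 UMIs in 33 mutant cells (40.2 CPM, 26.0 to 59.4), with a UMI in 14 of the mutant cells. Cryba4 had 6 and 0 UMIs there. Of the 72 Crybb3 UMIs in the mutant, 19 were in 168 endothelial-like cells (10.1 CPM, 6.08 to 15.8), where control cells held 70.8 CPM, and 21 in 4324 retinal progenitor-like cells (0.934 CPM). After thinning no mutant endothelial-like cell held Crybb3, so no share could be read at that depth. The mutant RPE-like cells held 1 UMI each of Crybb3 and Crygs and none of Cryaa, Cryba1, Cryba2, Cryba4, Crybb1 or Crybb2. Since they total 2413439 UMIs, a count of 0 allows 1.24 CPM by 3 counts (exact upper bound 1.53 CPM).

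Other genes of the lens and of the heat shock family were followed by lists. Beside the 0.648% of all genes that were at least 2-fold lower and the 0.108% that were at least 2-fold higher outside lens cells, all 7 further gamma crystallins were at least 2-fold lower in the mutant. Their median log2 difference was -5.08, against 0.05 over all genes tested. The exception within a class was Crygn, which stood at 21.7 and 19.9 CPM in RPE-like cells, 1.09-fold lower in the mutant (0.748 to 1.61), while Cryge went from 270 UMIs to 0 there. Of the 10 lens genes, 7 had enough UMIs and 4 of them were at least 2-fold lower, with Lim2 19.7-fold lower (12.9 to 31.8). None of the 5 small heat shock genes with enough UMIs, none of the 3 enzymes Crym, Cryz and Cryl1 and none of the 8 lens transcription factors with enough UMIs moved by 2-fold either way. Their median log2 differences were -0.23, -0.09 and 0.04. In retinal progenitor-like cells Pax6, a master factor of eye development, stood at 519 and 539 CPM and Sox2 at 297 and 328 CPM in control and mutant. Over all cells outside the lens cells, with their different class mixes, they stood at 335 and 421 CPM and at 121 and 163 CPM.

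Likeness of pattern was measured by Pearson's r of log2(CPM + 1) over 26 profiles of a class in 1 library, without the lens cells, and is a description in which profiles of 1 library share its background. Crybb1 and Cryba4 were each other's closest gene of 15680 (r = 0.99). For Cryaa, Cryba1, Cryba2, Crybb2, Crybb3 and Crygs, the 3 closest genes were all crystallins. Cryab stood apart, with Hspb2, its small heat shock neighbour, as the closest gene (r = 0.90). With the lens cells added as a profile, Hspb2 was no longer among its 3 closest genes, which were then Sult5a1, 6330403L08Rik and Gpc3. Hspb2 stood at 132 and 202 CPM in glia-like, 73.4 and 125 CPM in muscle-like and 22.7 and 39.4 CPM in RPE-like cells of control and mutant.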

How the data were processed

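The 2 samples of eye cup cells, 1 per genotype by the labels, were measured with 10x Genomics 3′ chemistry. The authors counted UMIs per gene and barcode with Cell Ranger against mm10, and the deposited matrices hold raw counts for called cells. The submitters' notes give Cell Ranger 7.1.0, while the matrix headers give software version 3.1.0. The annotation and strand setting of the counting are not given in the sources used here.

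A barcode needed 200 genes or more and a mitochondrial share no higher than 15% of its UMIs. The stated upper limit of 2000 UMIs was only an alternative, since 80.2% of control and 92.1% of mutant barcodes exceed it. Doublets were called with Scrublet in scanpy 1.11.5 at the expected rates of 11.4% and 9.78%, because its own threshold marked 0% of control barcodes. This removed 1646 and 1214 barcodes. The libraries were integrated and clustered in Seurat 5.3.0 (R 4.3.3) on 1985 variable genes, without 16 crystallins, with 30 principal components and resolution 1. A cluster was named X-like if at least 3 listed markers and at least as many counted as did not (10% of cells and 2-fold over the rest), unless its 10 leading genes held more markers of another class, or it was shallow (a median below 1/3 of its library) with none of its markers among them.

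UMIs were summed per class and library and given per 1000000 UMIs (CPM), with exact Poisson, Clopper-Pearson or conditional Poisson intervals of 95%. A fold is the plain ratio. Calls of 2-fold used 1 CPM added to each side and genes with at least 50 UMIs in both libraries together. A count of 0 was set against 3 counts. Lens cells were the gated cells that were not RPE-like, left out of all classes, whereas the summed and per-gene ratios used the gate as written. The counting was tested on simulated data. Named genes were the 9 members, listed genes by count, and the 3 genes closest to each member. Single genes of the lists given outside lens cells (such as Maf, Pax6, Crygn and Hspb2) were picked after their values were seen. The members, lists and motifs were chosen with earlier results of these data known. Gene positions came from GENCODE M21 and promoter windows from RefSeq, both on GRCm38. Alternatives were limits, doublets, gate, resolution, background class, added CPM and thinning.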

Additional observations from a re-analysis of the deposited data

Results flagged for a closer look

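Cryab differed in direction between classes. Ratios, mutant over control, are on the log2 scale with 1 CPM added. They were read in named classes with at least 100 CPM in the control and at least 50 UMIs in each library. Cryab stood at -0.22 in RPE-like and -0.14 in mesenchyme-like cells, and at 0.29 in pericyte-like, 0.51 in surface epithelium-like and 0.71 in muscle-like cells. None of the counting intervals of these 5 ratios included no change. Glia-like cells also met these limits and stood at 0.29, with an interval of -0.11 to 0.70 that included no change. Of the classes below these limits, astrocyte-like cells stood highest, at 1.88 (1.10 to 2.81) from 15 control UMIs and at 1.20 (0.26 to 2.29) without the top cell of each library. Retinal progenitor-, neurogenic, photoreceptor- and amacrine-like cells, with control levels of 21.6 to 40.9 CPM, ran from -3.16 to -2.53. Control red blood-like cells, which should lack Cryab, stood at 17.1 CPM. Relative to the sum of Cryaa, Cryba1 and Crybb3, Cryab stood at 11.9% there and at 10.2% in retinal progenitor-like cells. In these 4 classes a change in Cryab cannot be told apart from the difference in free RNA between the libraries. Each side rests on 1 library, and the difference between the classes was not tested. Leaving out the top cell of each library, an alternative chosen after seeing the data, gave 0.11 (-0.08 to 0.29) in pericyte-like and -0.11 (-0.22 to 0.01) in mesenchyme-like cells, so that both intervals then included no change. It gave -0.24 in RPE-like, 0.44 in surface epithelium-like and 0.68 in muscle-like cells, with intervals that did not. In pericyte-like cells, 1 mutant cell held 75 of the UMIs, and in the cluster of that cell, led by Higd1b, control and mutant stood at 413 and 377 CPM. In the other pericyte-like cluster, led by Col10a1, they stood at 92.0 and 117 CPM. With an upper limit of 2000 UMIs per barcode the RPE-like order turned, with 777 CPM for the control and 953 CPM for the mutant.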

How the results depend on the processing

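No paired analysis was possible because each genotype has 1 library, and for the same reason no replicate could be left out. The alternative that takes a cluster named lens-like gave no value, since no cluster earned that name. The share of cells in the lens gate as written, RPE-like cells included, was 0.857% in the control and 0.0740% in the mutant. It was 2.21% and 0% with an upper limit of 2000 UMIs, 1.99% and 0.324% with at least 2 lens genes, and 0.425% and 0.0185% with at least 4. It was 0.609% and 0% without RPE-like cells, an alternative chosen after seeing the data, and 0.679% in the control with a mitochondrial limit of 5%. When crystallins were allowed in the clustering, 1 unnamed shallow cluster led by crystallins had lens as its best match. That cluster, also chosen after seeing the data, held 68 control and 0 mutant cells, or 0.545% and 0%. The log2 ratio of the summed level over all cells, -3.23, was -5.75 with the limit of 2000 UMIs, -3.49 with the mitochondrial limit of 5%, -3.10 with 10 CPM added and -3.14 as UMIs per cell. Outside the gate, -2.52 became -4.37, -2.66, -2.39 and -2.42 under the same 4 settings, -2.43 and -2.64 with at least 2 and at least 4 lens genes, and -2.97 without cells of 10 or more UMIs of the 9 genes, a setting that removes cells by the measured genes themselves and so cannot speak for or against a difference. It was -2.30 without the unnamed clusters led by crystallins, chosen after seeing the data. Over 13 alternatives the ratio of Cryab, -0.55, ran from -0.99 to -0.24, the last with the class mix of the control in both libraries, and over 12 that of Crybb2, the member with the fewest UMIs, from -7.35 to -0.35. Of 109 such ratios of single genes, 41 moved beyond counting error and 0 changed direction. Of 360 class levels 89 moved, of 201 levels relative to red blood-like cells 33, and of 108 thinned shares of cells 64. Without the cell of each library with the most Cryab UMIs, 1 of 7 class ratios of Cryab moved, that of pericyte-like cells, from 0.29 to 0.11, and 0 changed direction.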
